A study of Mus musculus with 8 samples.

Results

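Sprr1a, Sprr2b and Lor encode proteins of the cornified envelope, the protein shell of the outermost cells of the skin. They were followed in METTL3-HKD and METTL3-Flox mouse livers after hepatic ischemia/reperfusion. The genes were picked by symbol from the 54532 genes of the deposited FPKM table, and all 3 were among the 16645 genes tested. FPKM divides the fragments of a gene by its length and by a size set for each library, so levels can be set side by side between genes. The 3 genes were chosen because they were higher in the METTL3-HKD livers of these same libraries, so their difference between the groups is a description, and no p-value is given for it.

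RNA was sequenced from the livers of 4 METTL3-HKD and 4 METTL3-Flox mice, each clamped for 1 h and sampled 6 h after blood flow returned. METTL3-HKD mice carried METTL3 flox/- with Alb-iCre, a recombinase driven by the albumin promoter of hepatocytes. METTL3-Flox mice carried METTL3 flox/flox, came from the same litters and received the same clamping. METTL3 installs N6-methyladenosine on RNA, and the loxP sites flank exon 4 of its gene, in a line founded in matings with C57BL/6 mice. The HKD mice model a reduction in hepatocytes and not a complete loss, the labels give no age, and no sham-operated liver was analysed here. The 2 groups differ in the number of floxed alleles as well as in Cre, and these cannot be told apart.

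When keratinocytes of the skin reach the end of their differentiation, transglutaminases crosslink a set of precursor proteins under the cell membrane into an insoluble envelope. Loricrin, the product of Lor, is the main precursor in the skin, and the small proline-rich proteins made by the Sprr genes act as crossbridges between the others. The genes for these precursors lie together in the epidermal differentiation complex, a cluster flanked by genes of the S100 calcium-binding proteins. Sprr1a is also known outside the skin as a gene induced by injury in neurons and heart muscle, and Sprr2 genes are known from epithelia under stress, bile duct epithelium among them.

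All 3 genes lie in this complex on chromosome 3 of GRCm38. Lor, listed as ENSMUSG00000043165, occupies positions 92080271 to 92083142 on the minus strand. Sprr2b, listed as ENSMUSG00000050092, occupies 92316620 to 92318085 on the plus strand, 233 kb from Lor. Sprr1a, listed as ENSMUSG00000050359, occupies 92483952 to 92485895 on the minus strand, 166 kb beyond Sprr2b. No other annotated gene overlaps the span of any of them. None of the 757 windows of 50 bases in Sprr1a transcripts, and none of the 1730 in Lor transcripts, occurred in a transcript of another gene. In Sprr2b, 101 of 715 windows, or 14.1%, were shared with another gene, most often Sprr2a1, so a part of its reads could not be assigned to it by sequence alone.

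The promoters are shown because the 3 genes were high in the same livers and because genes of AP-1 subunits, the Fos and Jun proteins, differ between the groups below. The sequences are from RefSeq on GRCm38.p6, which held a promoter for 3 of the 3 genes, and each is written 5′ to 3′ on the strand of its gene, ending just before the transcript start of the table. Capitals mark the letters TGANTCA, the core of an AP-1 site, which reads the same way on both strands. The stretches are chr3:92485896-92486131 on the minus strand for Sprr1a, chr3:92316455-92316619 on the plus strand for Sprr2b and chr3:92083143-92083392 on the minus strand for Lor.
Sprr1a: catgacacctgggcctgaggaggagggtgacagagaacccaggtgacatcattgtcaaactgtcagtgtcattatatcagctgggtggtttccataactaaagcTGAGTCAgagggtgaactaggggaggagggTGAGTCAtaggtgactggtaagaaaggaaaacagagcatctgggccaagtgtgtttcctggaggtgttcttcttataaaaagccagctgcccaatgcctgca
Sprr2b: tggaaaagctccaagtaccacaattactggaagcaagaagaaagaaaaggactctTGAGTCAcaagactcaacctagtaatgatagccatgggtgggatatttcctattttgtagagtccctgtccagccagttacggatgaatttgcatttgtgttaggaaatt
Lor: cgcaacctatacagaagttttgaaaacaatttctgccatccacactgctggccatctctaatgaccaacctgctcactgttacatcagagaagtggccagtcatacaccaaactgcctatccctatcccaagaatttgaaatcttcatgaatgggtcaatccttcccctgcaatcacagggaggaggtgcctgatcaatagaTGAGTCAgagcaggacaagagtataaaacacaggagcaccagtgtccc

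The same 7 letters, TGAGTCA, stood in each of the 3 promoters. Counted from the RefSeq start, they begin at -146 and -116 in Sprr1a, at -195 in Sprr2b and at -48 in Lor. In Sprr1a, the copy at -116 overlaps the letters GGGTG, the reverse complement of CACCC, a core of Kruppel-like factor sites. CACCC was found in the windows of Sprr1a and Sprr2b, not in that of Lor, and in 57.5% of all promoters. TGANTCA was found in 7.81% of 32851 RefSeq promoters of the same window length, searched on both strands. The letters TATAAA were also found in the window of each of the 3 genes and in 13.6% of all promoters. Neither TTCNNNGAA, the core of a STAT site, nor CCGGAA, a longer form of an Ets site, was found in any of the 3. They were found in 8.30% and 14.9% of all promoters, and the shorter Ets core GGAA was not searched. Such matches describe the letters of these windows and not binding.

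Each library held between 15861245 and 18434488 reads on genes. Defining hepatocyte markers were abundant in all livers, at a summed level of 23251 to 34265 FPKM in METTL3-HKD and 30565 to 34954 FPKM in METTL3-Flox livers. The sum was 23251 and 24824 FPKM in METTL3-HKD livers 1 and 2, where Sprr1a was highest, and 32236 and 34265 FPKM in livers 3 and 4. Of the 10, limma and voom each called 0, where limma called 6.22% of all genes tested, and the median log2 difference was -0.42. One of them, the regulator gene Hnf4a, was below in every METTL3-HKD liver (log2 difference -0.48, limma adjusted p = 0.0187) but under the fold threshold, and it alone had an unadjusted p under 0.05. In METTL3-HKD livers 1 to 4, Mettl3 itself was at 1.56, 1.39, 1.17 and 1.20 FPKM, and in METTL3-Flox livers 1 to 4 at 1.84, 1.16, 1.45 and 1.54 FPKM. These ranges overlapped, with a log2 difference of -0.16 (SE 0.165, limma adjusted p = 0.556), and a whole-gene FPKM does not isolate exon 4, so it does not check the labels. METTL3-HKD liver 1 was the highest of its group in 65.5% of the 782 genes called higher, and liver 3 was the lowest in 69.7%. These livers are named beside each result they touch. In whole liver RNA, more cells of a type and more RNA per cell cannot be told apart.

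Sprr1a, the crossbridge protein gene known for induction after injury, was at 182, 283, 19.2 and 141 FPKM in METTL3-HKD livers 1 to 4. In METTL3-Flox livers 1 to 4 it was at 0, 0.154, 0.326 and 0.0771 FPKM. The groups were far apart, and liver 3 was far below the other METTL3-HKD livers. The reads behind these levels were 2951, 4208, 280 and 2106 in METTL3-HKD livers and 0, 2, 4 and 1 in METTL3-Flox livers. Sprr1a was thus close to the limit of detection in one group and ranked 209, 143, 1919 and 315 by FPKM within METTL3-HKD livers 1 to 4.

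The mean of Sprr1a was 156 ± 109 FPKM (SD, n = 4) in METTL3-HKD and 0.139 ± 0.140 FPKM (SD, n = 4) in METTL3-Flox livers. The ratio of the summed reads, scaled by the library sizes behind the FPKM, was 1118. Its 95% exact counting interval, from 542 to 2780, covers counting error only. On the log2(FPKM + 0.1) scale, where low levels are compressed, the difference was 9.02 (SE 0.789), the highest among the 16645 genes tested. Without METTL3-HKD liver 3, the mean of that group was 202 ± 73.0 FPKM.

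Lor, which encodes loricrin, was at 11.6, 18.1, 1.80 and 10.1 FPKM in METTL3-HKD livers 1 to 4. It was at 0.435, 0.591, 0.370 and 0.559 FPKM in METTL3-Flox livers 1 to 4. The groups did not overlap, and liver 3 was again the lowest METTL3-HKD liver. Unlike Sprr1a, Lor was read in each of the METTL3-Flox livers, with 11, 17, 10 and 16 reads against 415, 596, 58 and 335 in METTL3-HKD livers.

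The mean of Lor was 10.4 ± 6.71 FPKM (SD, n = 4) in METTL3-HKD and 0.489 ± 0.104 FPKM (SD, n = 4) in METTL3-Flox livers. The ratio of the summed, scaled reads was 21.3, with a 95% exact counting interval of 16.2 to 28.5. The log2 difference was 3.79 (SE 0.600), which ranked 69 among the genes tested. Within METTL3-Flox, the highest liver was 1.60 times the lowest, and within METTL3-HKD it was 10.04 times the lowest. Without METTL3-HKD liver 3, the mean was 13.3 ± 4.26 FPKM.

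Sprr2b, a member of the Sprr2 group of small proline-rich proteins, was at 1.65, 1.17, 1.13 and 1.17 FPKM in METTL3-HKD livers 1 to 4. It had no read in any METTL3-Flox liver. The METTL3-HKD values came from 26, 17, 16 and 17 reads and lay close together, with only liver 1 apart. The mean was 1.28 ± 0.247 FPKM (SD, n = 4), at least 4.75-fold higher than the level that 3 reads would give in the METTL3-Flox library with the highest such level. Its fitted log2 difference, 3.77 (SE 0.214), ranked 70 and depends on the pseudocount. In the whole table, 44 genes had 0 reads over the METTL3-Flox livers and at least as many reads over the METTL3-HKD livers as Sprr2b, and no gene showed the reverse.

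All 3 genes passed the thresholds for a higher level (Benjamini-Hochberg adjusted p under 0.05 in limma and a log2 difference of at least 1), as did 4.70% of the genes tested. A further 1.52% passed for a lower level, 6.22% in either direction. In 12.7% of the genes tested all METTL3-HKD livers were above all METTL3-Flox livers, and in 9.95% all were below. Since that contrast chose the genes, nothing is read from the count.

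**Figure D1:**
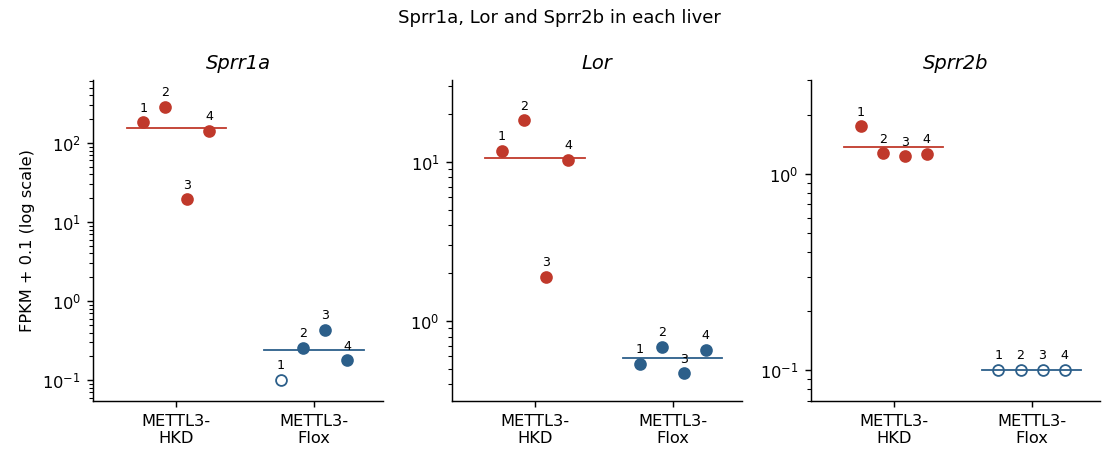
FPKM of Sprr1a, Lor and Sprr2b on a log axis for the METTL3-HKD and METTL3-Flox livers, 1 point per liver labelled with its replicate number, plotted after adding 0.1 FPKM, with open circles for livers at 0 FPKM and a line at each group mean. Sprr1a spans 19.2 to 283 FPKM over the METTL3-HKD livers and Sprr2b only 1.13 to 1.65 FPKM, while every METTL3-Flox liver is under 0.6 FPKM.

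Sprr1a made up most of the summed FPKM of the 3 genes in the METTL3-HKD livers, with 93.2%, 93.6%, 86.8% and 92.6% in livers 1 to 4. Lor gave 5.94%, 6.01%, 8.14% and 6.67% of the sum in the same livers. Sprr2b gave 0.844%, 0.389%, 5.10% and 0.768%, so its share was highest in liver 3. In METTL3-Flox livers the order was different, since Lor gave 100%, 79.4%, 53.1% and 87.9% of the sum in livers 1 to 4 and Sprr1a gave the remainder. These METTL3-Flox shares rest on 11 to 19 reads per liver over the 3 genes.

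The crossbridge gene and the loricrin gene kept a similar ratio in the METTL3-HKD livers. The FPKM of Sprr1a was 15.7, 15.6, 10.7 and 13.9 times that of Lor in livers 1 to 4, while each gene alone varied by 10.04 times or more between livers. In METTL3-Flox livers 1 to 4 this ratio was 0, 0.260, 0.883 and 0.138. The ratio of Sprr1a to Sprr2b was not kept, at 110, 241, 17.0 and 121 in METTL3-HKD livers 1 to 4. That of Lor to Sprr2b was 7.03, 15.5, 1.60 and 8.68.

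Sprr1a and Lor thus varied in parallel between METTL3-HKD livers, and Sprr2b varied little. As a share of the highest METTL3-HKD liver, Sprr1a stood at 64.4%, 100%, 6.81% and 49.8% in livers 1 to 4. Lor stood at 64.0%, 100%, 9.96% and 55.9%. Sprr2b stood at 100%, 71.2%, 68.5% and 70.8%. The coefficient of variation over the 4 livers was 69.8% for Sprr1a, 64.4% for Lor and 19.3% for Sprr2b.

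The order of the METTL3-HKD livers, from liver 2 through livers 1 and 4 to liver 3, was the same for Sprr1a and Lor. It was shared by 1030 genes, or 6.19% of the genes tested, and by 121 of the 782 genes called higher, or 15.5%. The order of Sprr2b put liver 1 before liver 2 and was shared by 191 of the 782, or 24.4%. The low level in liver 3 set Sprr1a and Lor apart from most genes called higher. The mean of the other METTL3-HKD livers was 10.5 times liver 3 for Sprr1a, and 20 of the 782 genes called higher, or 2.56%, had as large a ratio. For Lor it was 7.36 times, reached by 36 genes, or 4.60%, and for Sprr2b 1.18 times, reached by 659 genes, or 84.3%. The median over the genes called higher was 1.84 times. With 4 livers that share one tissue, these are descriptions of the libraries.

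**Figure D2:**
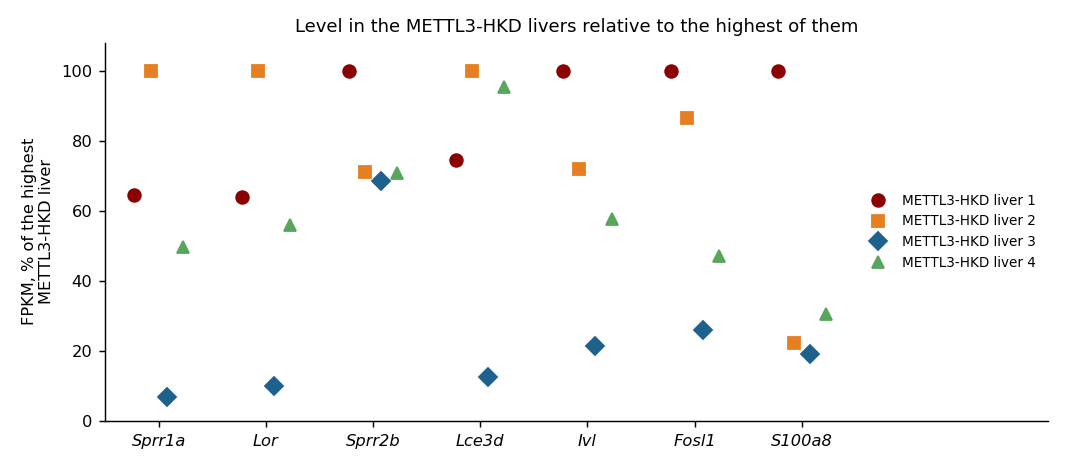
Level in METTL3-HKD livers 1 to 4 as a percentage of the highest METTL3-HKD liver, with a separate marker for each liver, for Sprr1a, Lor and Sprr2b and for Lce3d, Ivl, Fosl1 and S100a8. Sprr1a, Lor and Lce3d peak in liver 2 and fall to 6.81%, 9.96% and 12.6% in liver 3, whereas Sprr2b stays at or above 68.5% and S100a8 peaks in liver 1.

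Around the 3 genes, other genes of the epidermal differentiation complex were also higher in METTL3-HKD livers. Between S100a1 and S100a10, from 90511034 to 93564643 on chromosome 3, the table lists 121 genes, of which 75 are protein coding. No read was found for 68 of them in any liver. Of the other genes, 34 had reads in METTL3-HKD livers only, 2 had reads in METTL3-Flox livers only with 2 reads between them, and 17 had reads in both groups. Over the whole table, 3249 genes had reads in METTL3-HKD livers only and 1508 in METTL3-Flox livers only. Beside Sprr1a, Sprr2b and Lor, 22 genes of the complex were tested, and 11 were called higher and 0 lower. Of the 22, 2 were lower at an unadjusted p under 0.05, and voom called 11 higher and 0 lower. However, 10 of the 22, among them 8 of the 11, had no read in any METTL3-Flox liver, so they entered the test through the METTL3-HKD livers alone and could only come out higher. Of the 12 with METTL3-Flox reads, 3 were called higher and 0 lower, against 4.70% and 1.52% of all genes tested.

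**Figure D3:**
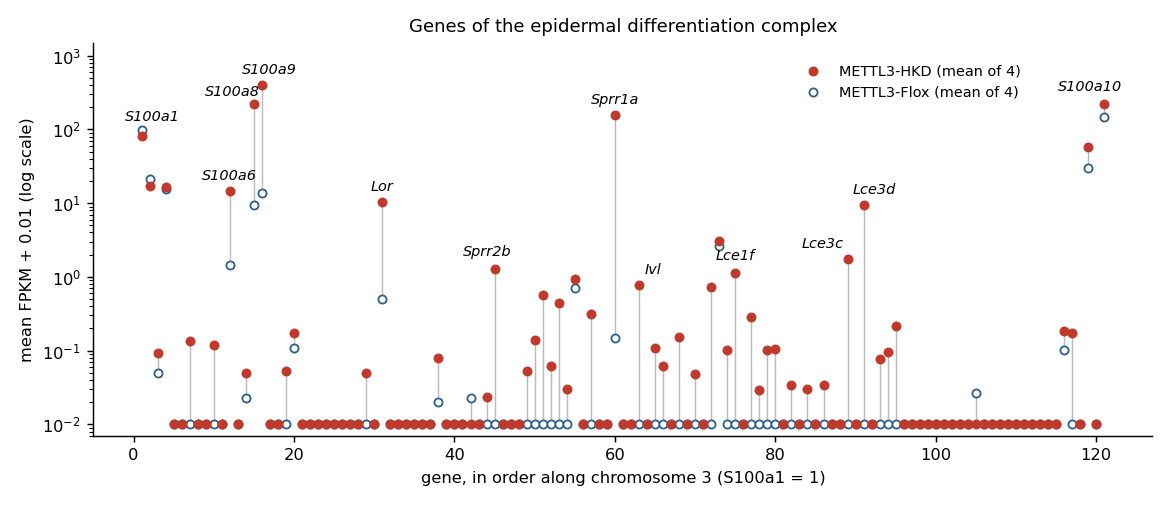
Mean FPKM over the METTL3-HKD livers and over the METTL3-Flox livers, on a log axis after adding 0.01 FPKM, for the 121 genes from S100a1 to S100a10 in their order along chromosome 3, with a grey line joining the group means of a gene. Sprr1a is at a METTL3-HKD mean of 156 FPKM and a METTL3-Flox mean of 0.139 FPKM, among many genes at 0.

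Other small proline-rich genes were low. Of 14 further Sprr genes, 8 had reads in METTL3-HKD livers only, 1 had reads in both groups, 5 had none, and all 14 together had 97 reads in METTL3-HKD and 2 in METTL3-Flox livers. Summed over the list, METTL3-HKD livers 1 to 4 held 1.25, 1.98, 0.257 and 2.98 FPKM, and there was at most 0.0412 FPKM in a METTL3-Flox liver, so liver 3 was again the lowest. The summed level of all 14 was thus at most 2.98 FPKM where Sprr1a alone reached 283 FPKM. Only Sprr2g, Sprr1b and Sprr2i passed the filter on low values. All 3 were without a METTL3-Flox read and passed it through the METTL3-HKD livers alone, so they could only come out higher and their reads are given in place of a test.

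Sprr2g, a neighbour of Sprr2b in the same group, was at 0.305, 1.16, 0.0850 and 0.661 FPKM in METTL3-HKD livers 1 to 4, from 4, 14, 1 and 8 reads. Its METTL3-HKD mean was at least 1.71-fold above the floor of 3 reads. Sprr1b, the close relative of Sprr1a, had 4, 3, 1 and 11 reads in METTL3-HKD livers 1 to 4 and was at least 1.19-fold above the floor. Both passed the thresholds with all livers. None of the 14 did when METTL3-HKD liver 1, 2 or 4 or METTL3-Flox liver 2, 3 or 4 was left out. With METTL3-Flox liver 1 left out, 1 did. Since neither gene had a METTL3-Flox read, these calls could only be higher, and only their loss is read.

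Genes of late envelope precursors were read almost only in METTL3-HKD livers. The list holds involucrin, the late cornified envelope (Lce) genes and the fused S100 proteins such as filaggrin and has 34 genes, of which 20 had reads in METTL3-HKD livers only, 1 in both groups and 13 in none. In all, they had 814 reads in METTL3-HKD and 33 in METTL3-Flox livers. Flg, the gene of filaggrin, had no read in any liver, and all 33 METTL3-Flox reads were those of Tchh. Of the 8 that passed the filter on low values, 7 had no METTL3-Flox read and passed through the METTL3-HKD livers alone, so nothing is read from the 6 of them that were called higher. Summed over the list, METTL3-HKD livers 1 to 4 held 15.2, 21.5, 3.24 and 21.7 FPKM and METTL3-Flox livers between 0.0107 and 0.191 FPKM. The mean of the other livers was 6.01 times METTL3-HKD liver 3, near the 7.36 times of Lor.

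Lce3d, a late envelope gene linked with barrier repair, was the highest of the 6, at 10.02, 13.4, 1.69 and 12.8 FPKM in METTL3-HKD livers 1 to 4. It had no read in the METTL3-Flox livers, and its METTL3-HKD mean was at least 22.1-fold above the floor. Lce3c was at 2.28, 2.29, 0.195 and 2.28 FPKM, at least 4.73-fold above the floor. Both had the low value in liver 3 that Sprr1a and Lor had. Of their 50-base windows, 49.3% for Lce3d and 35.7% for Lce3c were shared with other genes, so the split of reads between Lce3 genes is uncertain.

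Ivl, the gene of involucrin, an early scaffold of the envelope, was at 1.22, 0.873, 0.259 and 0.700 FPKM in METTL3-HKD livers 1 to 4, at least 6.94-fold above the floor, with no METTL3-Flox read. Its order of livers was not that of Lor. It was that of Sprr2b, whose order rests on few reads. Lce1f, Lce1d and Lce1g were at least 3.86, 2.34 and 1.20-fold above the floor. With a pseudocount of 1 FPKM, the calls of Ivl, Lce1d, Lce1f and Lce1g were lost. TGANTCA stood in 7 of the 12 other Sprr promoters that RefSeq held and in 7 of 31 late envelope promoters, and not in those of Lce3c and Lce3d.

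The S100 genes that flank the complex followed another pattern. Of 14 on the list, 8 were tested, and S100a6, S100a8 and S100a9 were called higher, against 4.70% of all genes tested. The median log2 difference over the 8 was 0.76. S100a8 and S100a9 also stand on the list of neutrophil markers. S100a8, a subunit of neutrophil calprotectin, was at 519, 115, 99.6 and 158 FPKM over METTL3-HKD livers 1 to 4 and at 16.9, 9.54, 3.32 and 7.52 FPKM in METTL3-Flox livers 1 to 4 (limma adjusted p = 0.00414). It was highest in liver 1, where Sprr1a was not. S100a10, a partner of annexin A2 and an abundant gene in liver, had a mean of 222 ± 47.4 FPKM against 146 ± 33.1 FPKM (SD, n = 4 each) and was not called.

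Some of the enzymes and junction proteins that assemble an envelope were called. Of 29 on the list, 14 were tested, and 5, or 35.7%, were called higher and 0 lower. Over all genes tested, 4.70% were called higher, and the median log2 difference of the list was 0.31. Tgm1, the main transglutaminase of the envelope, was at 9.83, 7.05, 10.8 and 12.8 FPKM over METTL3-HKD livers 1 to 4 and at 8.86, 11.8, 6.78 and 7.41 FPKM in METTL3-Flox livers 1 to 4 (log2 difference 0.21, limma adjusted p = 0.531). The groups overlapped, and the RNA of Tgm1 was present in both. Tgm3 had 2 reads in METTL3-HKD and 1 in METTL3-Flox livers. Ppl, the gene of the scaffold protein periplakin, had a log2 difference of -0.13, and Dsp, the gene of desmoplakin, one of -0.05, and neither was called.

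The 5 called were Anxa1, a substrate that transglutaminases crosslink into the envelope, with a log2 difference of 1.94, the epidermal lipoxygenase Aloxe3 with 3.45, the filaggrin-processing protease Asprv1 with 4.26, the protease inhibitor Spink5 with 1.96 and dermokine, Dmkn, with 1.69. Aloxe3 was at 2.01, 2.09, 0.476 and 0.892 FPKM over METTL3-HKD livers 1 to 4 and at most 0.0290 FPKM in a METTL3-Flox liver. It passed the filter on low values through the METTL3-HKD livers alone, so its call among the 5 could only be higher. Like Sprr1a and Lor, Aloxe3 was lowest in liver 3. So was Asprv1, which was highest in liver 1, as S100a8 was. Asprv1 was at 14.3, 3.64, 3.18 and 5.74 FPKM over METTL3-HKD livers 1 to 4 and between 0.0850 and 0.364 FPKM in METTL3-Flox livers (limma adjusted p = 0.00230). Across the alternatives in which they were tested, Spink5 lost its call in 8 of 13 and Dmkn in 10 of 13, and Anxa1, Aloxe3 and Asprv1 in none. The count was 3 when METTL3-HKD liver 1 or 4 or METTL3-Flox liver 1, 2 or 3 was left out.

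Markers of keratinocytes, the cells that normally build an envelope, were low, and more of them were read in METTL3-HKD livers. Of 16 on the list, 5 had reads in METTL3-HKD livers only, 0 in METTL3-Flox livers only and 6 in both groups. They had 1251 reads in METTL3-HKD and 509 in METTL3-Flox livers, of which 990 and 404 were those of the integrin gene Itga6. Of the others, Krt1, Krt2, Krt6a, Krt13 and Krt15 had no read in any liver, and Krt16, Krt6b and Dsg3 had 2 reads or fewer in all. Trp63, the regulator that defines stratified epithelium, had 16 reads over the METTL3-HKD livers and 0 over the METTL3-Flox livers. Krt5, the basal keratin, was at 0.498, 0.542, 0 and 0.416 FPKM over METTL3-HKD livers 1 to 4 and had no METTL3-Flox read. Krt14, its partner, was at 1.30, 0.0308, 0.567 and 0.337 FPKM in METTL3-HKD livers and between 0 and 0.224 FPKM in METTL3-Flox livers (limma adjusted p = 0.162). Krt10, a keratin of the upper layers, was at 0.494 to 0.563 FPKM in METTL3-HKD and 0.556 to 0.747 FPKM in METTL3-Flox livers (log2 difference -0.28, limma adjusted p = 0.247). The median log2 difference of the 4 keratinocyte markers tested was 1.27. Among these 4, Krt5 passed the filter on low values through the METTL3-HKD livers alone and could only come out higher, so nothing is read from this median. Only Itga6, which other cells of the liver also express, was called higher, against 4.70% of all genes tested. The count was 0 without METTL3-HKD liver 1 or 4 or METTL3-Flox liver 1, 3 or 4. Itga6 lost its call in 10 of 14 alternatives. It was also lost without METTL3-HKD liver 2 or 3, where the 1 gene called was another marker of the list. The summed level of the list ran from 2.30 to 4.44 FPKM in METTL3-HKD and from 1.03 to 1.87 FPKM in METTL3-Flox livers.

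Markers of other cells moved with the group as well. Of all genes tested, 4.70% were called higher, the share to set beside each count here. Of 10 biliary markers, 9 were tested and 7 were called higher, with summed levels of 377, 205, 124 and 201 FPKM over METTL3-HKD livers 1 to 4 and 56.9 to 83.4 FPKM in METTL3-Flox livers. The biliary count was 3 without METTL3-HKD liver 1, METTL3-HKD liver 2, METTL3-Flox liver 3 or METTL3-Flox liver 4, and 4 without METTL3-Flox liver 2. Of 7 mesothelial markers, all 7 were tested and 3 were called higher, with summed levels of 732, 589, 598 and 599 FPKM in METTL3-HKD livers and 294 to 596 FPKM in METTL3-Flox livers. The keratins Krt8 and Krt18, which hepatocytes and bile ducts also make, carry this sum, at means of 308 and 316 FPKM in METTL3-HKD livers, and were not called, so the sum is not a mesothelial level. The 3 called, Upk3b, Upk1b and Lrrn4, had METTL3-HKD means of 0.976, 0.949 and 0.488 FPKM. The mesothelial count was 1 without METTL3-HKD liver 1 or 2 or any one METTL3-Flox liver. Of 8 neutrophil markers, 7 were tested and 6 were called higher, with summed levels of 1595, 377, 327 and 541 FPKM against 13.8 to 46.0 FPKM. None of these summed levels was highest in METTL3-HKD liver 2, as Sprr1a and Lor were. A single biliary keratin gene, Krt23, was, at 4.10, 7.503, 0.566 and 2.10 FPKM over METTL3-HKD livers 1 to 4 and 0.0791 to 0.336 FPKM in METTL3-Flox livers. Their part in the levels of Sprr1a, Sprr2b and Lor was not tested.

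**Figure D4:**
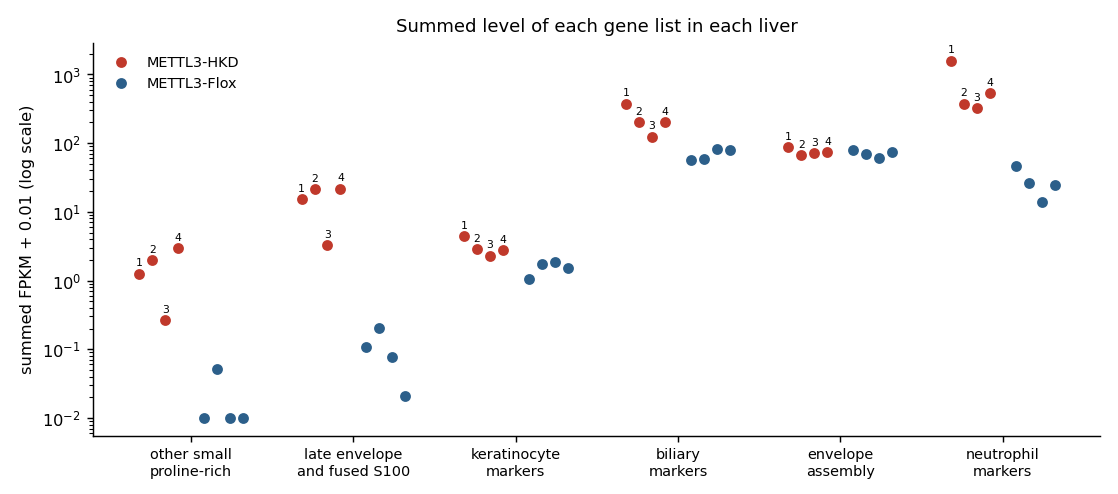
Summed FPKM per liver, on a log axis after adding 0.01 FPKM, of the other small proline-rich, late envelope, keratinocyte, biliary, envelope assembly and neutrophil lists, with METTL3-HKD livers in red under their numbers and METTL3-Flox livers in blue. The late envelope sums are 3.24 to 21.7 FPKM in METTL3-HKD livers and at most 0.191 FPKM in METTL3-Flox livers, while the envelope assembly sums overlap between the groups.

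Regulators known to act on envelope genes in keratinocytes were often higher. Of 21 on the list, 17 were tested, and 10, or 58.8%, were called higher and 0 lower, with a median log2 difference of 1.06. Over all genes tested, 4.70% were called higher. The AP-1 genes among them were Fos, Fosb, Fosl1, Fosl2, Jun and Junb, and the others were Klf4, Ets2, Grhl1 and Prdm1. Fosl1, which encodes the AP-1 subunit Fra-1, was at 14.4, 12.5, 3.76 and 6.78 FPKM over METTL3-HKD livers 1 to 4 and between 0.0824 and 0.326 FPKM in METTL3-Flox livers (log2 difference 4.85, SE 0.432, limma adjusted p = 0.00112). It was lowest in liver 3 and highest in liver 1, as was Sprr2b, whose order rests on few reads. Klf4, a Kruppel-like factor of barrier formation, was at 2.22, 1.17, 1.07 and 0.953 FPKM against 0.285 to 0.548 FPKM (limma adjusted p = 0.0108), and its call was lost with a pseudocount of 1 FPKM. Prdm1 lost its call in 10 of 13 alternatives, Junb in 6 of 14 and Grhl1 in 3 of 13.

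Sprr1a is known as a target of cytokines that signal through gp130, so the genes of that axis were listed too. Of 13, all 13 were tested, and 5 ligands, Il6, Osm, Lif, Il11 and Clcf1, were called higher and 0 genes lower. This was 38.5% called higher, against 4.70% of all genes tested, with a median log2 difference of 0.69. The receptor gene Il6ra was below in every METTL3-HKD liver, at 4.86 to 6.73 FPKM against 8.82 to 9.97 FPKM (log2 difference -0.67, limma adjusted p = 0.00821), but under the fold threshold. Osm, the gene of oncostatin M, was at 20.5, 4.001, 0.926 and 6.73 FPKM over METTL3-HKD livers 1 to 4. It was at most 0.0868 FPKM in a METTL3-Flox liver, and its call was lost with voom. Il11 was at 4.89, 2.82, 0.715 and 2.41 FPKM in METTL3-HKD livers and at most 0.0981 FPKM in a METTL3-Flox liver. Osm and Il11 thus passed the filter on low values through the METTL3-HKD livers alone. Their calls, part of the 38.5%, could only be higher. Both ligands were lowest in liver 3, as were Sprr1a and Lor, but highest in liver 1.

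The genes with profiles most like those of the members were found from the root mean square difference of log2(FPKM + 0.1), centred on each gene's mean over the 8 livers, among the genes tested. Because this distance includes the size of the group difference, it is a description. For a gene without METTL3-Flox reads, the distance also depends on the pseudocount. For Sprr1a the closest was Mmp13, a collagenase, at 1.26, with 65.4, 73.2, 2.17 and 36.1 FPKM in METTL3-HKD livers 1 to 4. Next came Mmp10, a stromelysin, at 1.40, Lce3d at 1.53, and the heat shock gene Hspa1a and the chemokine gene Cxcl2 at 1.64 each. Lor ranked 47 in this order and Sprr2b 73, at 2.69 and 2.86. At the same distances, Sprr1a ranked 15999 in the order of Lor and 16500 in that of Sprr2b.

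For Lor the closest genes were Gm11938 and Acbd7 at 0.231 each, Lce3c at 0.279, Sorcs2 at 0.329 and Gm10440 at 0.383. All 5 had their lowest METTL3-HKD value in liver 3 and at most 0.0281 FPKM in a METTL3-Flox liver. Gm11938, Acbd7, Lce3c and Gm10440 had no METTL3-Flox read, unlike Lor, so their likeness depends on the pseudocount. Gm11938 had 22, 34, 4 and 20 reads in METTL3-HKD livers 1 to 4, where Lor had 415, 596, 58 and 335. For Sprr2b the closest was Il1f9, a cytokine of the interleukin-1 family made by epithelia, at 0.242, with 6.43, 3.48, 3.06 and 4.51 FPKM in METTL3-HKD livers 1 to 4. Csf3r, the receptor of the neutrophil growth factor, followed at 0.372, then Gm18734 at 0.381, Npy at 0.384 and Areg, the gene of amphiregulin, at 0.418. Gm18734, Npy and Areg had no METTL3-Flox read, and Npy had 9, 7, 8 and 7 reads in METTL3-HKD livers 1 to 4. The distance between Sprr2b and Lor was 0.852, so the nearest genes of each stood closer to it than the other did. Sprr2b ranked 82 in the order of Lor, and Lor ranked 152 in that of Sprr2b.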

How the data were processed

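Livers of 4 METTL3-HKD and 4 METTL3-Flox mice were grouped by the sample labels, which do not say more about how the animals were kept apart, so p-values measure the spread between these samples. The authors deposited one table of FPKM per gene and library with gene lengths, on GRCm38 (also named mm10). The aligner, counter, annotation and strand setting are not given in the sources used here. The library size behind the FPKM was inferred from the smallest non-zero values of each library. It ran from 14210943 (METTL3-Flox liver 1) to 20114825 (METTL3-HKD liver 1), against 16914680 and 17237993 reads on genes. Multiplying FPKM by length and this size returned whole reads for 100% of non-zero values (tolerance 0.05). These reads were used for depth, floors and counting intervals. Without strand, reads from opposite genes cannot be told apart. Coordinates are those of the table, and transcripts for shared windows were from GENCODE M21.

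Where the mean reached 0.1 FPKM, genes were compared with limma 3.58.1 (R 4.3.3, mean-variance trend) on log2(FPKM + 0.1), with Benjamini-Hochberg adjustment over 16645 genes. A call needed adjusted p under 0.05 together with a log2 difference of 1 or more in size, the study's thresholds. On simulated data of 16283 genes, 144 of 200 genes changed 4-fold were called, with 5 unchanged genes. The simulation gave all genes the same dispersion and drew the livers independently, without shifts shared by many genes, so these rates need not hold for the real livers. The floor was 3 reads per library. Alternatives were a minimum mean of 1 FPKM or none, 1 FPKM as the pseudocount, scaling to reads on genes, voom, a replicate block and the omission of each liver. The rule named the members, Mettl3, each list's called genes and up to 4 others with the highest mean, and the 5 genes nearest each member. Tgm3, Ppl, Trp63, Hnf4a, Il6ra and the keratinocyte markers near 0 were added after their values were seen. Members and lists were chosen with earlier results of these data known. Sequences were from RefSeq, searched with Python 3.11.15.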

Additional observations from a re-analysis of the deposited data

Results flagged for a closer look

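In 162 groups of 4 livers with a mean of at least 0.1 FPKM, 1 liver lay far from the other 3 in 12 groups. The measure was the gap to the nearest liver as a share of the group's range, set against Dixon's critical value, and chance marks about 1 in 20 groups. Among the members, Sprr2b was marked, with 1.65 FPKM in METTL3-HKD liver 1 against 1.13 to 1.17 FPKM in the other livers of the group. Lce3c was marked for its low value of 0.195 FPKM in METTL3-HKD liver 3 against 2.28 to 2.29 FPKM. Crct1, a further gene of the complex, was at 0.815 FPKM in METTL3-HKD liver 4 and at 0 in the other METTL3-HKD livers.

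METTL3-HKD liver 1 stood above the others for S100a6 at 31.7 FPKM, S100a8 at 519 FPKM, Anxa1 at 13.2 FPKM, Krt17 at 0.449 FPKM and the neutrophil gene Retnlg at 175 FPKM. It also stood apart for the summed mesothelial markers at 732 FPKM and the summed neutrophil markers at 1595 FPKM. METTL3-Flox liver 1 stood apart for Jun at 11.1 FPKM and Jund at 25.5 FPKM. Neither Sprr1a nor Lor was marked in either group.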

How the results depend on the processing

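Sprr1a, Sprr2b and Lor stayed higher in METTL3-HKD livers wherever an alternative tested them, and no result changed direction. Sprr2b was not tested at a minimum mean of 1 FPKM. With a pseudocount of 1 FPKM, the log2 differences were 6.61 for Sprr1a, 1.18 for Sprr2b and 2.65 for Lor, and with voom that of Sprr2b was 4.98. When each liver was left out in turn, they ranged from 8.56 (without METTL3-HKD liver 2) to 9.85 (without METTL3-HKD liver 3) for Sprr1a, from 3.65 to 3.82 for Sprr2b, and from 3.39 (without METTL3-HKD liver 2) to 4.48 (without METTL3-HKD liver 3) for Lor. Scaling to reads on genes moved the median of all genes from -0.00 to 0.20.

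Over all genes, the count called higher was 317 with a pseudocount of 1 FPKM and 450 at a minimum mean of 1 FPKM, and that called lower was 88 with the pseudocount, 163 with no minimum and 133 when scaled to reads on genes. The pseudocount of 1 FPKM gave 0 other Sprr genes, 2 late envelope, 3 assembly, 0 keratinocyte, 3 biliary, 0 mesothelial and 6 regulator genes called higher. The minimum mean of 1 FPKM gave 0 other Sprr, 1 late envelope, 2 assembly, 4 biliary, 0 mesothelial, 6 regulator and 3 gp130 genes. With no minimum, 0 keratinocyte and 4 biliary markers were called.

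Same-numbered livers did not deviate together, with correlations from -0.0838 to 0.0711. Differently numbered livers gave -0.0674 to 0.0942. The labels do not name litters, so these correlations cannot decide whether the numbers mark pairs. With the replicate block, 1 other Sprr gene, 0 keratinocyte, 3 biliary and 0 mesothelial markers were called higher.

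With each liver left out in turn, the higher count over all genes ranged from 492 (without METTL3-HKD liver 1) to 960 (without METTL3-HKD liver 3) and the lower count from 94 (without METTL3-Flox liver 3) to 341 (without METTL3-HKD liver 3). The higher count was also low without METTL3-Flox liver 3, at 519, and the lower count without METTL3-HKD liver 1, METTL3-Flox liver 2 or METTL3-Flox liver 4, at 121, 155 and 166. The counts called higher ranged from 0 to 3 for other Sprr genes, 5 to 6 for late envelope, 3 to 4 for S100, 3 to 4 for assembly, 0 to 1 for keratinocyte, 3 to 6 for biliary, 1 to 4 for mesothelial, 5 to 6 for neutrophil, 7 to 10 for regulator and 5 to 6 for gp130 genes. Of 58 named genes that were called, 26 kept the call under every one of the 14 alternatives in which they were tested and 32 lost it under at least 1. The cause of these changes was not tested. At the minimum mean of 0.1 FPKM, all 3 other Sprr genes and 7 of 8 late envelope genes tested had no METTL3-Flox read. Their calls could only be higher. Genes at a few reads per library, as Sprr2b and most Lce genes, are limited by depth.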
